A study of Mus musculus with 12 samples.

Results

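The genes described here are 43 genes of DNA replication and mitosis in the developing mouse heart. They comprise 19 genes that license, unwind or copy DNA or make its nucleotides and 24 genes of mitotic entry, chromosome segregation and cytokinesis. They were taken by name from the 48709 gene intervals of the deposited count table. Each of the 43 names occurred once in the table, and all 43 passed the filter on low counts that left 28846 genes for testing.

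Total RNA was sequenced from dissected cardiogenic regions, the tissue that forms the heart, of mouse embryos at embryonic day 8 (E8), 8.5 (E8.5), 9.5 (E9.5) and 14 (E14). There were 3 libraries per stage and 12 in all, with 56574386 to 122785175 counts per library. The labels give no strain, sex, genotype, treatment or sort, and no label says that libraries of a stage came from separate embryos or litters, so the p-values measure the spread between these libraries, which may be technical. In bulk tissue, fewer cells of a type and less RNA per cell cannot be told apart. Of 8 cardiomyocyte genes, the counts scaled to library size (CPM) summed to 15901 to 25269 in every library, and none was at 0. The 8 did not move together. From E9.5 to E14 their log2 fold changes ran from -1.32 to 1.13 in the edgeR fit described below. It called 4 of the 8 higher and 2 lower, against 25.4% and 24.6% of all genes tested.

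Cells copy DNA in S phase and divide it in M phase. Origins are first licensed, when Orc1, Cdc6 and Cdt1 load the Mcm2-7 helicase, and the helicase is then activated so that polymerases can copy the strands. Mitosis follows, driven by Cdk1, Plk1 and Aurora kinases, watched by the spindle checkpoint and closed by cytokinesis. Transcription of many replication genes in late G1 depends on E2F factors, and that of many mitotic genes in G2 on complexes at CHR elements (cell cycle genes homology regions) and on NF-Y at CCAAT boxes. In the mouse, cardiomyocytes divide through fetal life and leave the cell cycle after birth.

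To show how the classes differ in the DNA before the start of transcription, 3 promoters of each are given. They are RefSeq sequences of GRCm38.p6, 5′ to 3′ on the strand of the gene, up to 200 bases before the start and trimmed where the deposited gene interval begins earlier. Capitals mark exact matches on either strand to 4 forms of the E2F site (TTCCCGC, its variant TTCGCGC, the further form TTGCCGC and the common form TTGGCGC), the NF-Y box CCAAT and the CHR core TTTGAA. The E2F forms can overlap each other, as in Mcm6 and Mcm5. The windows are chr1:128359706-128359905 (minus strand), chr8:75109309-75109508 (plus strand), chrX:93632156-93632355 (minus strand), chr10:69352939-69353112 (minus strand), chr4:118437353-118437543 (minus strand) and chr7:135716380-135716579 (minus strand).
Mcm6: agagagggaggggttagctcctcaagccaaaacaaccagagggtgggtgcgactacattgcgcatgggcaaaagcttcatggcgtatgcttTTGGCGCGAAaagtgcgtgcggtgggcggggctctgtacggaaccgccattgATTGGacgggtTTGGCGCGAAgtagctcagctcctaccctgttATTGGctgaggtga
Mcm5: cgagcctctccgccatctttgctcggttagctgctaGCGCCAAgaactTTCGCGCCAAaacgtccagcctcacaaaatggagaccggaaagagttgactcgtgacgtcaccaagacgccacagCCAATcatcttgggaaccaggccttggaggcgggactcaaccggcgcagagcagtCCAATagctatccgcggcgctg
Pola1: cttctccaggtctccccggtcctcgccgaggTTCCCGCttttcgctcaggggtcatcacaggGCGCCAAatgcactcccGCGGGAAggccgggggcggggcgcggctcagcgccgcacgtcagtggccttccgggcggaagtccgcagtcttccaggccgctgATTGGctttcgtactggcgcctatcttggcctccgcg
Cdk1: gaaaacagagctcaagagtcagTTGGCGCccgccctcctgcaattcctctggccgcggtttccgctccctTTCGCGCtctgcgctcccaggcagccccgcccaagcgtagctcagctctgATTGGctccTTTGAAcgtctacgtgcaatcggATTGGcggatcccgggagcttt
Cdc20: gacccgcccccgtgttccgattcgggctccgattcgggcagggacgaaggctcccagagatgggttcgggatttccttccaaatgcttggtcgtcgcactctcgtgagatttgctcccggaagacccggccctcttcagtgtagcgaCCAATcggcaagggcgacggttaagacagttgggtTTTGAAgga
Mki67: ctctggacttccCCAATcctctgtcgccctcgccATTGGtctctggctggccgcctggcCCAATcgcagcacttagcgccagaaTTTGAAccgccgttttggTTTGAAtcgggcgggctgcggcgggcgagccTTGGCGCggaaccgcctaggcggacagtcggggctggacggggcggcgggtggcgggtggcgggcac

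The genes of these promoters occupy, in the deposited table, chr1:128331590-128359664 (Mcm6), chr8:75109569-75128439 (Mcm5), chrX:93304767-93632155 (Pola1), chr10:69336635-69352938 (Cdk1), chr4:118432901-118437352 (Cdc20) and chr7:135689784-135716361 (Mki67). The intervals of Mcm6, Mcm5 and Mki67 begin some bases after the RefSeq start. In the stretches shown, Mcm6 held 4 E2F matches, Mcm5 and Pola1 held 3 each, and none of the 3 held the CHR core. Mki67 held 2 CHR cores and Cdk1 and Cdc20 held 1 each. Cdk1 and Mki67 carried E2F matches too, with 2 and 1, while Cdc20 had none.

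Across the full windows of 300 bases, 250 before and 50 after the start, the E2F forms were present in 10 of 15 replication genes (66.7%) and 4 of 21 mitotic genes (19.0%). The CHR core was present in 2 of 15 (13.3%) and 15 of 21 (71.4%). CCAAT was present in 12 of 15 (80%) and 16 of 21 (76.2%). Over the windows of 17492 protein-coding genes the shares were 13.7%, 18.5% and 42.3%. The sequences matched 36 of the 43 genes. Gins1, Gins2, Mcm4, Pole, Aurkb, Kif20a and Tpx2 had no entry. A further 50 replication genes and 73 mitotic genes from wider lists gave 26 of 41 (63.4%) and 18 of 64 (28.1%) for the E2F forms, and 5 of 41 (12.2%) and 37 of 64 (57.8%) for the CHR core. Some matches lay after the start rather than before it. Among the 43 genes this held for every CHR core match of Anln, Aurka, Bub1b, Cenpa, Cenpf, Kif23, Plk1 and Ttk. It also held for every E2F match of Mcm3 and Cdt1. A match is a string of letters and does not show that a factor binds there.

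**Figure D1:**
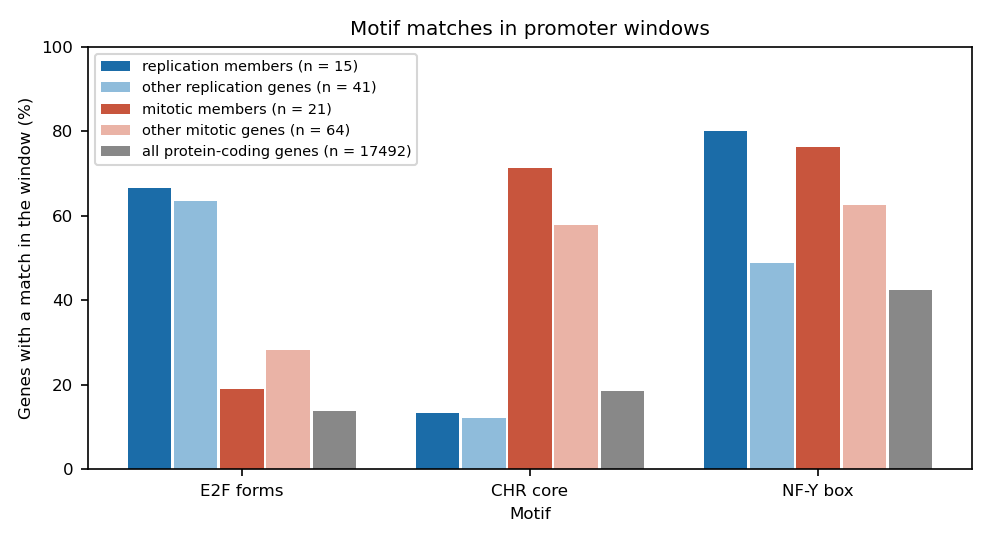
Share of genes (percent) with each motif in a promoter window of 300 bases, for the replication genes, the mitotic genes, the wider lists and all protein-coding genes. The E2F forms were in the windows of 66.7% of replication and 19.0% of mitotic genes, and the CHR core in those of 13.3% and 71.4%.

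Most of the 43 genes were highest at E9.5 and lowest at E14. By mean CPM, 14 of the 19 replication genes and 18 of the 24 mitotic genes had their highest stage at E9.5, and 18 and 20 had their lowest at E14. The same count was not made over all genes. Most of the differences between E9.5 and E8 did not pass: the edgeR test used below called 5 of the 43 higher at E9.5, against 13.6% of all genes. The 43 genes together took 0.402% ± 0.0048 (SD, n = 3) of all counts at E8 and 0.375% ± 0.019 at E8.5. Their share was 0.423% ± 0.013 at E9.5 and 0.284% ± 0.016 at E14. The 3 E14 libraries, at 0.27% to 0.301%, lay below each of the other 9, at 0.360% to 0.436%. Single libraries stood apart within stages: E14 replicate 1 was the highest of its stage in 37 of the 43 genes, E9.5 replicate 1 the lowest of its stage in 36, and E8.5 replicate 3 the highest of its stage in 31. All levels below are CPM with library sizes scaled by the trimmed mean of M-values (TMM), and CPM compare a gene with itself, not with a gene of another length.

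**Figure D2:**
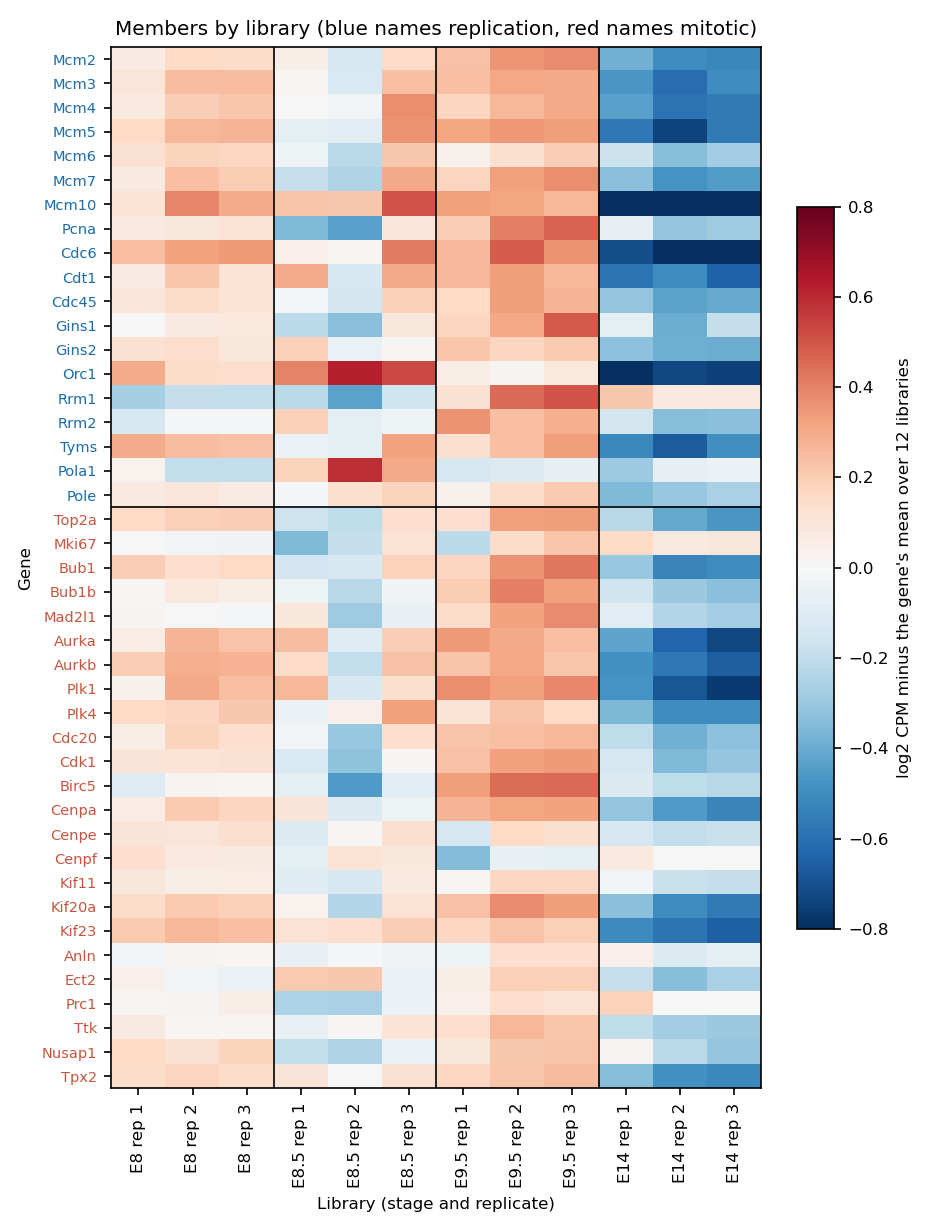
Log2 CPM of each of the 43 genes in each of the 12 libraries, as the difference from the mean of that gene over all libraries. Genes are in rows by class and libraries in columns by stage. The E14 columns are the lowest for 18 of 19 replication genes and 20 of 24 mitotic genes by stage mean.

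From E9.5 to E14, 37 of the 43 genes fell, 0 rose and 6 did not pass edgeR's quasi-likelihood test at a Benjamini-Hochberg adjusted p under 0.05. Over all 28846 genes 24.6% were called lower and 25.4% higher. The median log2 fold change of the 43 genes was -0.59, with a range of -1.19 to 0.18, against a median of 0.015 over all genes tested. Of the replication genes 17 of 19 fell (median -0.71), and of the mitotic genes 20 of 24 fell (median -0.57). In all 37 the 3 E14 libraries lay below the 3 E9.5 libraries, a separation seen downward in 30.7% of all genes and upward in 32.3%. Without E9.5 replicate 1 the test called 38 lower (22.2% of all genes), and without E14 replicate 1 it called 39 (23.1%).

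The licensing factors fell furthest as a role: 3 of 3 were lower at E14, with a median of -0.86. Cdc6, the ATPase that helps load the helicase, had 36.8, 38.9 and 39.4 CPM at E8, 32.03, 31.4 and 41.6 at E8.5, 37.2, 43.6 and 39.9 at E9.5 and 19.04, 16.3 and 17.4 at E14. All of E14 lay far below the other 9 libraries, and the fall from E9.5 was -1.19 ± 0.11 (log2 fold change ± SE, edgeR adjusted p = 3.59e-06). Cdt1, the loading partner that is degraded once S phase begins, had 25.04, 27.8 and 25.8 CPM at E8, 29.4, 21.9 and 29.5 at E8.5, 28.7, 30.2 and 28.7 at E9.5 and 15.9, 16.9 and 15.3 at E14. E14 again held the lowest 3 libraries, with a log2 fold change of -0.86 ± 0.11 (edgeR adjusted p = 3.33e-05). Orc1, the large subunit of the origin recognition complex, had 21.99, 19.8 and 19.7 CPM at E8, 23.6, 27.5 and 25.8 at E8.5, 18.6, 18.1 and 18.98 at E9.5 and 10.2, 10.8 and 10.7 at E14. Orc1 was highest at E8.5, where its 3 libraries exceeded those of every other stage, and it changed by -0.81 ± 0.076 from E9.5 to E14 (edgeR adjusted p = 3.83e-06). An antisense transcript, Gm12743, overlaps 63.3% of the Orc1 interval with 0.797 counts per Orc1 count, and its own log2 fold change from E9.5 to E14 was -0.77. The intervals of Cdt1 and Gins2 lie wholly inside that of Gm20388, which had 114 and 94.7 counts for each of theirs and changed by -0.47. Gse1 also overlaps 25.8% of the Gins2 interval, with 2.10 counts per Gins2 count and a change of -1.07. The strand setting of the counting is not given in the sources used here, so shared reads cannot be told apart.

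All 6 subunits of the Mcm2-7 helicase fell, with a median of -0.78 and a range of -0.96 to -0.38. Mcm5 had 121, 130.4 and 131 CPM at E8, 103, 102 and 139 at E8.5, 135, 138 and 137 at E9.5 and 72.8, 64.8 and 73.4 at E14. The E14 values were the lowest of the 12, and the log2 fold change from E9.5 was -0.96 ± 0.11 (edgeR adjusted p = 2.47e-05). Mcm2 had 118, 126 and 125 CPM at E8, 117, 103 and 126 at E8.5, 133, 144 and 147 at E9.5 and 86.6, 79.9 and 78.9 at E14. Its E9.5 libraries were above, and its E14 libraries below, those of every other stage, with a change of -0.79 ± 0.084 (edgeR adjusted p = 1.12e-05). Mcm6, whose promoter with 4 E2F matches is shown above, had 153, 159 and 158 CPM at E8, 137, 121 and 163 at E8.5, 144, 154 and 161 at E9.5 and 125, 111 and 116 at E14. Its E14 libraries were below all of E9.5 and E8 but overlapped E8.5 replicate 2, and its fall of -0.38 ± 0.10 was the smallest of the 6 (edgeR adjusted p = 0.00749). Mcm3, Mcm4 and Mcm7 changed by -0.81, -0.78 and -0.71. The subunits act as a single ring, yet the log2 ratio of Mcm5 to Mcm6, relative to its E8 mean, was -0.48, -0.48 and -0.36 in the E14 libraries and -0.12 to 0.20 in the other 9.

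The helicase activators fell in 4 of 4 cases, with a median of -0.60. Mcm10, which helps start unwinding, had 27.99, 33.9 and 31.8 CPM at E8, 30.4, 30.1 and 36.8 at E8.5, 32.5, 32.2 and 31.1 at E9.5 and 14.3, 13.5 and 14.3 at E14. The 3 values at E14 were far below all others and close together, with a fall of -1.19 ± 0.094 (edgeR adjusted p = 1.02e-06). Cdc45, Gins1 and Gins2, which join the Mcm ring in the active helicase, changed by -0.64, -0.55 and -0.57.

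Of the polymerases and their clamp, 2 of 3 fell. Pcna, the sliding clamp that holds the polymerase on DNA, had 119, 121 and 122 CPM at E8, 88.7, 83.6 and 121 at E8.5, 130.1, 149.6 and 157 at E9.5 and 108, 90.9 and 93.02 at E14. It was highest at E9.5 with no overlap with another stage, and its change to E14 was -0.58 ± 0.13 (edgeR adjusted p = 0.00298). Pole, the leading-strand polymerase, changed by -0.44. Pola1, the primase-bound polymerase that starts each strand, had 106, 90.5 and 90.3 CPM at E8, 117, 156 and 128 at E8.5, 94.6, 96.1 and 98.95 at E9.5 and 84.6, 98.9 and 100.4 at E14. E8.5 was high and the other stages overlapped, and the change of -0.028 ± 0.11 from E9.5 to E14 did not pass (edgeR adjusted p = 0.853). Pola1 spans 327 kb (chrX:93304767-93632155 in the deposited table), by far the longest of the 43. With gene span as a term in each library's scaling its change was -0.53 (edgeR adjusted p = 1.81e-04), and that fit called 40 of the 43 genes lower, against 26.6% of all genes.

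Of the nucleotide supply genes, Rrm2 and Tyms fell while Rrm1 did not pass. Rrm2, the S-phase subunit of ribonucleotide reductase, had 71.1, 77.5 and 77.6 CPM at E8, 89.03, 74.1 and 76.05 at E8.5, 100.2, 92.02 and 94.8 at E9.5 and 70.3, 61.6 and 61.7 at E14. Its E9.5 libraries were the highest and its E14 libraries the lowest of the 12, with a change of -0.57 ± 0.088 (edgeR adjusted p = 1.98e-04). Rrm1, the large subunit of the same enzyme, had 105, 110.5 and 109.7 CPM at E8, 108, 93.5 and 113 at E8.5, 137, 173 and 178 at E9.5 and 146, 133 and 133 at E14. Rrm1 stayed above E8 and E8.5 at E14, and its change from E9.5 was -0.24 ± 0.10 (edgeR adjusted p = 0.0718), a value that passed in 7 of 21 other settings. Relative to E8, the log2 ratio of Rrm2 to Rrm1 was -0.53, -0.59 and -0.58 in the E14 libraries, against -0.39 to 0.24 in the others. Tyms, which makes thymidylate, changed by -0.79 ± 0.10.

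**Figure D3:**
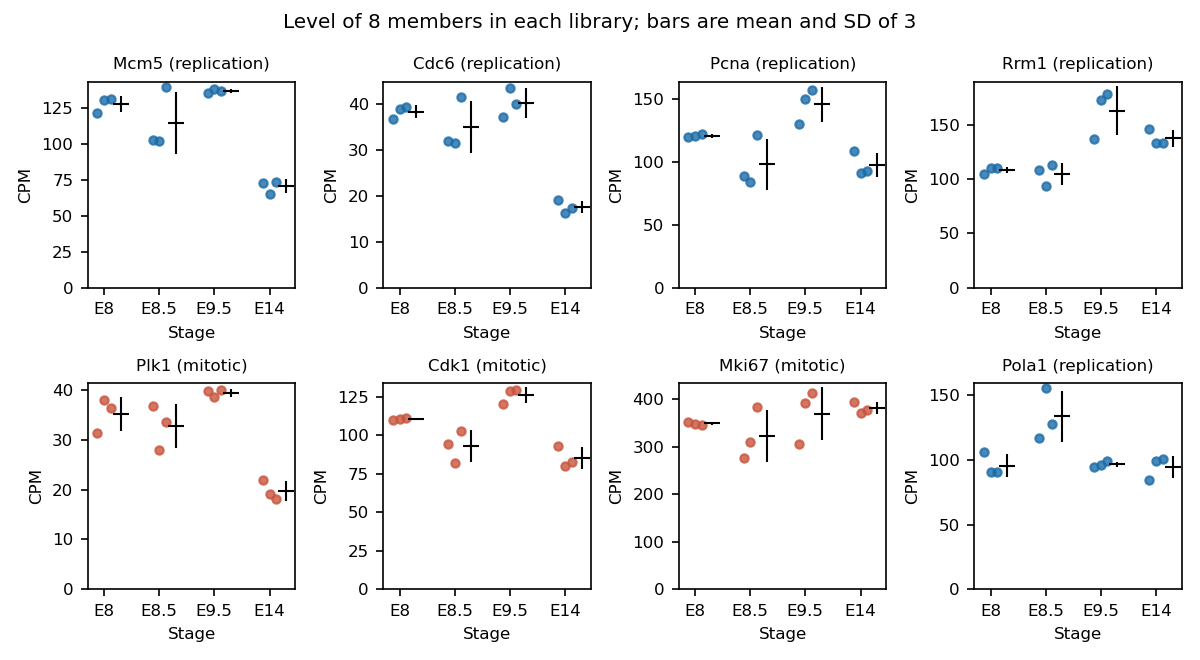
CPM by library (points) and stage mean with SD (black crosses) for named replication and mitotic genes across E8, E8.5, E9.5 and E14, with 3 libraries per stage. Cdc6, Mcm5 and Plk1 are lowest in the 3 E14 libraries, while Mki67 at E14 (371 to 394 CPM) lies within its range at E9.5 (306 to 412 CPM).

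Among the mitotic genes the kinases and their partner Birc5 fell in 6 of 6 cases, with a median of -0.72. Plk1, polo-like kinase, needed for mitotic entry and spindle assembly, had 31.4, 37.9 and 36.3 CPM at E8, 36.8, 28.02 and 33.5 at E8.5, 39.8, 38.5 and 40.1 at E9.5 and 22.00, 19.1 and 18.1 at E14. Its E14 libraries were below all 9 others, with a fall of -1.002 ± 0.11 (edgeR adjusted p = 1.47e-05). Cdk1, the kinase that triggers mitosis, had 109.8, 110.4 and 111 CPM at E8, 93.98, 81.9 and 103 at E8.5, 120.2, 129 and 129.6 at E9.5 and 93.1, 79.9 and 82.5 at E14. The E9.5 libraries were the highest, the E14 libraries overlapped E8.5 only, and the fall from E9.5 was -0.57 ± 0.090 (edgeR adjusted p = 2.42e-04). Aurka, of the spindle poles, and Plk4, of centriole duplication, changed by -0.89 and -0.62.

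Aurkb, the catalytic kinase of the chromosomal passenger complex, had 33.99, 36.3 and 35.9 CPM at E8, 33.02, 25.9 and 34.9 at E8.5, 34.8, 36.8 and 34.6 at E9.5 and 21.2, 19.95 and 18.8 at E14. E14 was the lowest stage without overlap, with a change of -0.82 ± 0.10 (edgeR adjusted p = 3.21e-05). Birc5, the survivin subunit of that complex, had 33.4, 36.3 and 36.2 CPM at E8, 33.9, 26.1 and 33.6 at E8.5, 45.03, 48.7 and 49.04 at E9.5 and 33.01, 31.1 and 30.6 at E14. Birc5 was highest at E9.5 without overlap, and E14 lay within the E8.5 range, with a fall of -0.59 ± 0.10 from E9.5 (edgeR adjusted p = 2.80e-04). The log2 ratio of Birc5 to Aurkb relative to E8 was 0.64, 0.64 and 0.71 at E14, 0.38 to 0.51 at E9.5, and within -0.050 to 0.042 in the E8 and E8.5 libraries.

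The spindle checkpoint genes, which hold anaphase until chromosomes are attached, fell in 5 of 5 cases with a median of -0.55. Cdc20, the activator of the anaphase-promoting complex that the checkpoint restrains, had 60.6, 66.4 and 64.4 CPM at E8, 57.6, 47.5 and 64.2 at E8.5, 68.7, 69.3 and 70.5 at E9.5 and 50.9, 44.9 and 46.6 at E14. The E9.5 libraries were the highest, and those of E14 overlapped the lowest E8.5 library, with a fall of -0.55 ± 0.10 (edgeR adjusted p = 5.94e-04). Bub1, Bub1b, Mad2l1 and Ttk changed by -0.76, -0.58, -0.49 and -0.47.

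At the centromere, Cenpa and Cenpe fell and Cenpf did not pass. Cenpa, the histone that marks centromeres, had 55.00, 60.9 and 59.3 CPM at E8, 56.6, 48.9 and 51.4 at E8.5, 63.6, 65.7 and 65.98 at E9.5 and 42.3, 38.6 and 36.6 at E14. At E14 all 3 were below every other library, with a fall of -0.73 ± 0.078 (edgeR adjusted p = 1.14e-05). Cenpf, a large kinetochore protein of G2 and mitosis, had 122.7, 118 and 118 CPM at E8, 106, 121 and 119 at E8.5, 88.2, 107 and 107 at E9.5 and 118, 112 and 112 at E14. At E14 all 3 were above the 3 of E9.5, the reverse of Cenpa, with a change of 0.18 ± 0.086 that did not pass (edgeR adjusted p = 0.105). With only genes of at least 10 CPM in 3 libraries tested, the Cenpf change was 0.25 and passed (edgeR adjusted p = 0.0211). The small fall of Cenpe, the kinetochore motor, was -0.23 ± 0.087 (edgeR adjusted p = 0.0458). It was lost in 10 of 21 other settings, 7 of which left out 1 library (any E8 library, E9.5 replicate 2 or 3, E14 replicate 2 or 3).

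Of the spindle proteins, 3 of 3 fell, with a median of -0.34. Tpx2, which recruits Aurka to the spindle, changed by -0.66 and Kif11, the motor that separates the poles, by -0.24. The call for Kif11 (edgeR adjusted p = 0.023) was lost in 5 of 21 other settings, 4 of which left out 1 library (E9.5 replicate 2 or 3, E14 replicate 2 or 3). Nusap1, a microtubule-binding protein, had 74.2, 72.4 and 75.2 CPM at E8, 58.02, 56.2 and 64.6 at E8.5, 70.9, 77.3 and 77.9 at E9.5 and 67.6, 57.2 and 53.7 at E14. At E14 it lay below E9.5 and overlapped E8.5, with a change of -0.34 ± 0.091 (edgeR adjusted p = 0.00769).

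Of the cytokinesis genes, 3 of 5 fell. Kif20a and Kif23, motors of the central spindle, changed by -0.78 and -0.77. Ect2, the exchange factor that activates RhoA at the cleavage plane, had 75.3, 72.3 and 70.7 CPM at E8, 84.8, 85.3 and 70.96 at E8.5, 75.8, 83.8 and 83.8 at E9.5 and 64.6, 57.97 and 61.3 at E14. Its E14 libraries were the lowest of the 12, with a fall of -0.40 ± 0.084 (edgeR adjusted p = 0.00175). Anln, an actin-binding protein of the furrow, and Prc1, a microtubule bundler, did not pass, at -0.13 and -0.039. With the span term Anln was at -0.28 and passed (edgeR adjusted p = 0.0147). The Prc1 interval lies wholly inside that of Rccd1 on the other strand, which had 1.09 counts per Prc1 count and a log2 fold change of -0.080, so Prc1 is uncertain. Kif20a overlaps 26.8% of its interval with Cdc23, with 0.943 counts per Kif20a count and a change of -0.52.

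The last role is chromosome structure, with 1 of 2 genes called. Top2a, the topoisomerase that untangles chromosomes, had 449, 459 and 461 CPM at E8, 359.9, 349.7 and 442 at E8.5, 442, 507 and 508 at E9.5 and 345, 303 and 292 at E14. Its E14 libraries were the lowest of the 12, with a fall of -0.63 ± 0.11 (edgeR adjusted p = 4.13e-04). Mki67, the coat protein of mitotic chromosomes widely used as a proliferation marker, had 352, 348 and 346 CPM at E8, 276, 309.9 and 383 at E8.5, 306, 391 and 412 at E9.5 and 394, 371 and 377 at E14. E14 lay within the E9.5 range and above all of E8, with a change of 0.043 ± 0.13 (edgeR adjusted p = 0.808). The log2 ratio of Plk1 to Mki67, relative to its E8 mean, was -0.85, -0.97 and -1.07 in the E14 libraries and between -0.20 and 0.41 in the other 9.

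**Figure D4:**
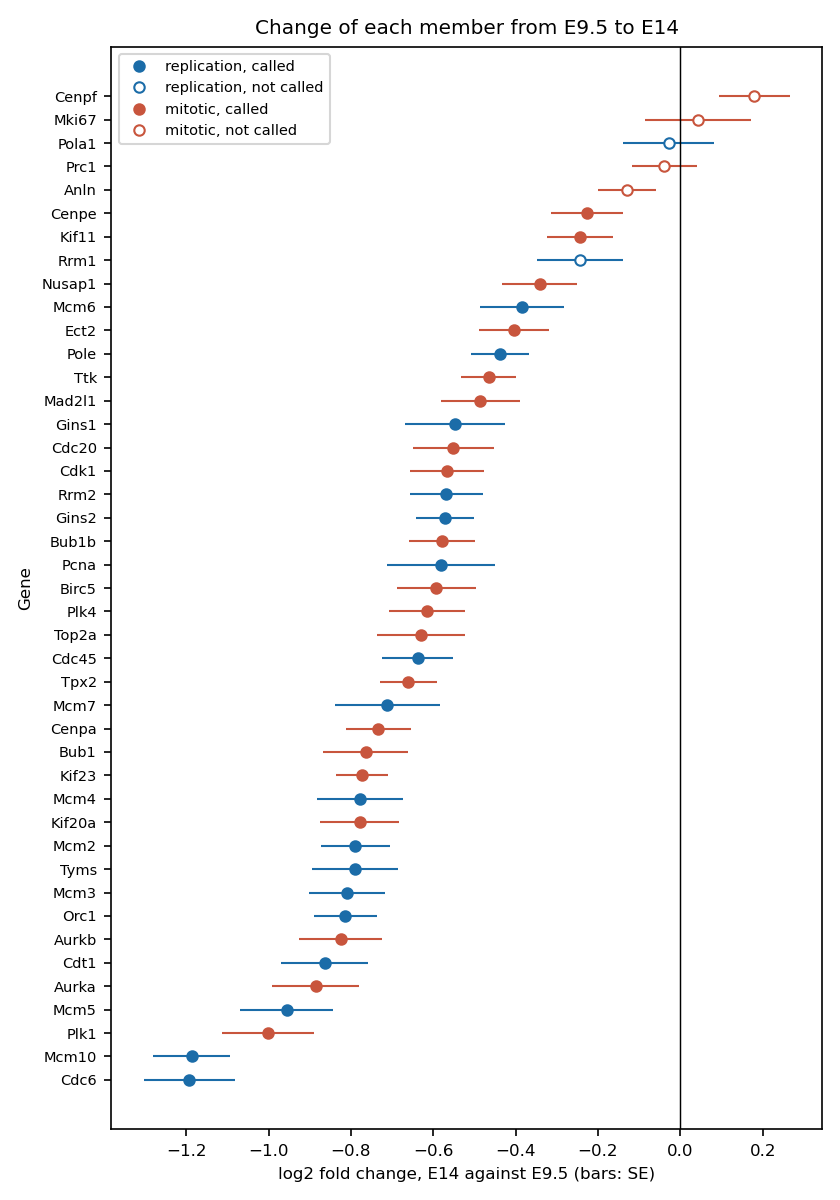
Log2 fold change from E9.5 to E14 (points) with SE (bars) for each of the 43 genes in order of change and coloured by class, from the edgeR fit of all 12 libraries. Cdc6 (-1.19) and Mcm10 (-1.19) stand at the low end and Cenpf (0.18) at the high end.

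Among the 43, longer genes had smaller falls. Across the 43 genes, which share the 12 libraries, the log2 fold change from E9.5 to E14 correlated with log10 of gene span at r = 0.49 (Spearman rho = 0.50), given as a description, against r = 0.12 across all genes tested. The 22 shorter genes (4.15 to 21.8 kb) had a median of -0.76 and the 21 longer ones (23.1 to 327 kb) -0.44. Median span was 17.3 kb in the replication class and 28.0 kb in the mitotic class. With span as a term in the scaling, the class medians were -0.69 and -0.56. The other comparisons also showed a correlation with span among the 43. It was r = 0.48 from E8 to E8.5 (0.13 across all genes) and -0.54 from E8.5 to E9.5 (-0.18). From E8 it was -0.34 to E9.5 (-0.091 across all genes) and 0.31 to E14 (0.040). Whether the counts include intronic reads is not given in the sources used here.

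The classes were set against each other within each library, as the median log2 CPM of each class relative to every gene's own mean over the 12 libraries. The mitotic median minus the replication median was 0.0062, -0.046 and -0.011 in the E8 libraries, -0.057, -0.038 and -0.13 at E8.5, -0.014, -0.056 and -0.071 at E9.5, and 0.16, 0.13 and 0.13 at E14. The 3 E14 libraries were above all 9 others. The replication median itself was -0.43 ± 0.066 (SD, n = 3) at E14 against 0.26 ± 0.078 at E9.5, and the mitotic median -0.29 ± 0.083 against 0.21 ± 0.050. The ranges of single genes overlapped widely, from -1.19 to -0.028 in the replication class and from -1.002 to 0.18 in the mitotic class.

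**Figure D5:**
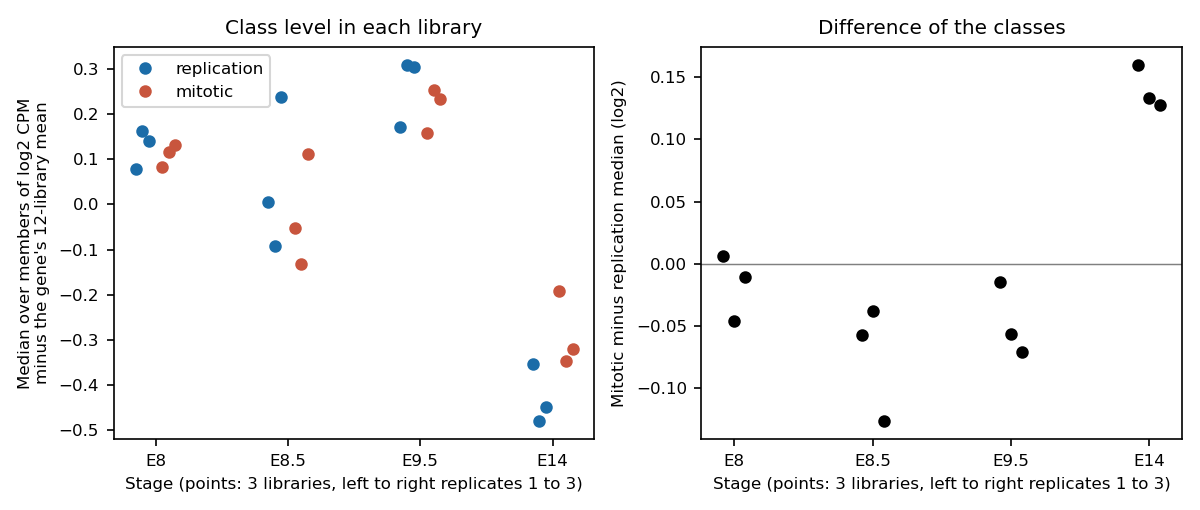
Median log2 CPM of the 19 replication and 24 mitotic genes in each of the 12 libraries, relative to each gene's mean over all libraries. Both classes are lowest in the 3 E14 libraries, where the replication median (-0.35 to -0.48) lies below the mitotic median (-0.19 to -0.35).

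The same changes were split by motif within each class, as a description. The 10 replication genes with an E2F form had a median log2 fold change of -0.76 from E9.5 to E14 and the 5 without had -0.79. The 15 mitotic genes with the CHR core had -0.55 and the 6 without had -0.54. The 12 replication genes with CCAAT had -0.67, and the 3 without (Cdc6, Cdt1 and Tyms) had -0.86. For the mitotic genes the split by CCAAT gave -0.56 for 16 with it and -0.49 for 5 without. Cdc20 and Mki67, both with a CHR core and CCAAT in the stretch shown, differed at -0.55 and 0.043. Mcm5 and Pola1, both with 3 E2F matches there, differed at -0.96 and -0.028.

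Between E8 and E8.5 none of the 43 genes passed edgeR's test, with 1.18% of all genes called, 0.891% higher and 0.291% lower. At an unadjusted p under 0.05 there were 7 (28.1% of all genes), and DESeq2 called 2 higher and 3 lower, against 8.25% and 6.84% of all genes. The median was -0.10 (0.021 over all genes), with -0.10 for replication and -0.11 for mitotic genes, and 36 of 43 values were negative. Orc1 and Pola1 had the largest positive values, 0.32 ± 0.074 and 0.49 ± 0.11 (edgeR adjusted p = 0.0516 for both, and for Pola1 a value of 0.056 with the span term), and Nusap1 and Pcna the largest negative ones, -0.31 ± 0.090 and -0.30 ± 0.13 (edgeR adjusted p = 0.0706 and 0.156). For Orc1 and Pola1 every E8.5 library was above every E8 library, and for 8 mitotic genes every E8.5 library was below, separations seen in 13.0% and 13.5% of all genes. For Pcna, E8.5 replicates 1 and 2 were at 88.7 and 83.6 CPM and replicate 3 was at 121 CPM, inside the E8 range.

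At E8.5, where replicate 3 was the highest library in 31 of the 43 genes, replicate 2 was the lowest in 31. The summed level of 8 visceral endoderm and liver genes, markers of an extra-embryonic tissue, was 1634 CPM in E8.5 replicate 3, 153 and 56.5 CPM in replicates 1 and 2, and 19.5 to 19.7 CPM at E8, with no marker at 0. E8.5 replicate 3 was also the highest of its stage for the 8 cardiomyocyte genes (24634 against 15901 and 20888 CPM). It was the lowest for the erythroid (183 against 391 and 419 CPM) and epicardial genes (6.56 against 11.5 and 14.4 CPM). The part of these differences in the levels of the 43 genes was not tested. Without that library 19 of the 43 genes were called lower at E8.5 than at E8 and 2 higher, Orc1 and Pola1, against 15.7% and 14.2% of all genes in that fit. Those lower included Mcm5 (-0.35), Pcna (-0.52), Cdk1 (-0.36), Top2a (-0.40) and Cdc20 (-0.31).

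From E8.5 to E9.5, 18 of the 43 genes rose, 2 fell and 23 did not pass, while 18.4% of all genes were called higher and 18.5% lower. The median was 0.20 (-0.028 over all genes). In the replication class 6 of 19 rose: the helicase subunit Mcm2 (0.29), the activators Cdc45 (0.24) and Gins1 (0.47), the clamp Pcna (0.57) and the reductase subunits Rrm1 (0.63) and Rrm2 (0.26). The Cdc45 call (edgeR adjusted p = 0.0459) was lost in 13 of 21 other settings, 9 of which left out 1 library, and that of Rrm2 in 7. Orc1 and Pola1 fell, by 0.47 ± 0.074 and 0.47 ± 0.11 on the log2 scale (edgeR adjusted p = 7.93e-04 and 0.0067). With the span term the Pola1 change was -0.0073 and did not pass (edgeR adjusted p = 0.954). In the mitotic class 12 of 24 rose and 0 fell, with a median of 0.23.

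The mitotic rise was led by Birc5, from 26.1 to 33.9 CPM at E8.5 to 45.0 to 49.0 at E9.5, a log2 fold change of 0.61 ± 0.10 (edgeR adjusted p = 7.18e-04). The 5 spindle checkpoint genes rose in the fit of all 12 libraries, Bub1b by 0.41 ± 0.080, Mad2l1 by 0.36 ± 0.10, Bub1 by 0.35 ± 0.10, Cdc20 by 0.30 ± 0.10 and Ttk by 0.19 ± 0.066. Of these 5, Bub1b alone passed without E9.5 replicate 3, and Bub1b and Mad2l1 without E8.5 replicate 1 or 2 or E9.5 replicate 2. The Ttk call was lost in 11 of 21 other settings. Cdk1 rose by 0.44 ± 0.089 (edgeR adjusted p = 0.00305) with no overlap between stages. Cenpa (0.32), Nusap1 (0.34), Top2a (0.34), Kif20a (0.34) and Prc1 (0.28) made up the 12. Plk1, Aurkb and Mki67 had 0.27, 0.18 and 0.19 and did not pass. The count of 18 depended on single libraries: it was 30 without E8.5 replicate 3 (with 2 lower, against 23.5% and 20.4% of all genes in that fit), 10 without E8.5 replicate 2 (13.9% of all genes), 9 without E9.5 replicate 2 (12.6%) and 6 without E9.5 replicate 3 (12.2%). Of the 20 calls in either direction, 7 passed in all 21 other settings: Orc1, Pcna, Rrm1, Bub1b, Cdk1, Birc5 and Cenpa.

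Set against E8, in the same fit of all 12 libraries, E9.5 had 5 genes higher and 0 lower, where 13.6% and 11.3% of all genes were called. The 5 were Rrm1 (0.59 ± 0.11, edgeR adjusted p = 0.00188), Birc5 (0.43 ± 0.10, 0.00646), Rrm2 (0.34 ± 0.087, 0.0133), Bub1b (0.27 ± 0.080, 0.0302) and Mad2l1 (0.28 ± 0.10, 0.0491). The Mad2l1 call was lost in 11 of 21 other settings, that of Bub1b in 9 and that of Rrm2 in 1. Rrm1 and Birc5 passed in all 21. The median was 0.088 against 0.025 over all genes. At the low end Cenpf had -0.25 ± 0.086 (edgeR adjusted p = 0.0564). The count was 2 without E8 replicate 1 (9.22% of all genes called higher), 3 without E8 replicate 2 or 3, E9.5 replicate 2 or 3 or E14 replicate 2 or 3 (8.27% to 11.7%), and 8 without E8.5 replicate 3, where 1 was lower and 17.0% and 14.7% of all genes were called higher and lower.

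From E8 to E14, 32 of the 43 genes fell, 1 rose and 10 did not pass, with 29.2% of all genes called lower and 31.5% higher. The median was -0.49 (0.041 over all genes), with -0.59 in the replication and -0.35 in the mitotic class. This comparison shares its E14 libraries with that from E9.5. Mcm10, Cdc6 and Orc1 had the largest falls, at -1.16 ± 0.093, -1.13 ± 0.11 and -0.96 ± 0.076 (edgeR adjusted p = 6.55e-07, 3.16e-06 and 5.55e-07). Rrm1 rose, by 0.34 ± 0.10 (edgeR adjusted p = 0.0137), a call that was lost without E8 replicate 1 or E14 replicate 1. Of the genes that rose from E8.5 to E9.5, Birc5 at -0.16 ± 0.10, Mad2l1 at -0.20 ± 0.10, Pcna at -0.31 ± 0.13 and Gins1 at -0.27 ± 0.12 did not pass (edgeR adjusted p = 0.162, 0.0895, 0.0579 and 0.0761). Mki67, Prc1, Anln, Cenpf, Kif11 and Pola1, at 0.13, 0.030, -0.052, -0.067, -0.19 and -0.013, also did not pass. With the span term Pola1 was at -0.48 and passed (edgeR adjusted p = 2.63e-04).

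In the wider lists of the same pathways most genes fell from E9.5 to E14. Over all genes 24.6% were called lower and 25.4% higher. Of 50 other replication genes 41 fell and 0 rose (median -0.52). The largest falls were in Recql4, a helicase of origin firing, from 11.3 ± 0.645 to 3.47 ± 0.436 CPM (SD, n = 3, log2 fold change -1.71), in the clamp loader subunit Chtf18 (-1.30) and in Fen1, which trims Okazaki fragments (-1.23). Of 73 other mitotic genes 55 fell and 6 rose (median -0.44). Mis18a, needed to load Cenpa at centromeres, Espl1, the separase that cleaves cohesin, and Gtse1 had the largest falls (-1.001, -0.97 and -0.90). Cdc25b, a phosphatase that activates Cdk1, Cenpp and Cenpm had the largest rises (0.99, 0.77 and 0.54).

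From E8 to E8.5, where 1.18% of all genes were called, 0 of 50 replication genes and 1 of 73 mitotic genes (Arhgap11a, 0.29) passed. From E8.5 to E9.5 (18.4% of all genes higher, 18.5% lower), 19 replication genes rose and 2 fell, with Tk1, the salvage kinase of thymidine, at 0.82, Rpa3 at 0.78 and Pold2 at 0.68, and 32 mitotic genes rose and 4 fell, with Cdc25b at 1.27, Cenpm at 1.02 and Pttg1, securin, at 0.82. From E8 to E14 (29.2% of all genes lower, 31.5% higher), 37 and 41 fell and 4 and 8 rose. Tk1 was higher at E14 than at E8 (0.80), as Rrm1 was.

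Among 21 cell cycle transcription factors 11 fell and 4 rose from E9.5 to E14 (median -0.21), against 24.6% and 25.4% of all genes. Mybl2 (B-Myb), which acts at CHR elements with the MuvB complex, went from 43.8 ± 7.004 to 11.97 ± 0.400 CPM (SD, n = 3), a log2 fold change of -1.87 ± 0.10 (edgeR adjusted p = 6.44e-08). Mycn (-1.07), E2f4 (-0.82) and Tfdp1 (-0.81), the partner of E2F proteins, fell. Rbl2 (p130), a pocket protein of resting cells, went from 10.4 ± 0.943 to 29.4 ± 1.17 CPM, a change of 1.49 ± 0.084 (edgeR adjusted p = 7.99e-08). Rbl1 (0.37), E2f2 (1.42) and Tfdp2 (0.49) rose. E2f1 at 0.010 and Foxm1 at -0.21 did not pass (edgeR adjusted p = 0.924 and 0.29).

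Of 7 inhibitors of cyclin-dependent kinases, 3 rose and 2 fell from E9.5 to E14, against 25.4% and 24.6% of all genes. Cdkn2c (p18), an inhibitor of Cdk4 and Cdk6, had the largest rise, from 1.91 ± 0.263 to 14.7 ± 1.57 CPM (SD, n = 3), a log2 fold change of 2.94 ± 0.18 (edgeR adjusted p = 1.62e-07). Cdkn1a (p21) rose by 1.20 ± 0.19 to 5.16 ± 0.676 CPM, and Cdkn1b (p27) by 0.45 ± 0.10 to 43.4 ± 3.94 CPM. Cdkn1c (p57), an imprinted inhibitor, went the other way, from 583 ± 25.2 at E8 and 432 ± 11.9 at E9.5 to 197 ± 25.7 CPM at E14, a change of -1.13 ± 0.12 from E9.5 (edgeR adjusted p = 1.05e-05). Cdkn2a, below 1 CPM at all stages, was also called lower.

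Markers of other cell types moved between the stages too. The summed level of 5 fibroblast and matrix genes ran from 74.9 to 83.3 CPM at E8 and 224 to 391 CPM at E9.5, and reached 2127 to 2184 CPM at E14. That of 8 erythroid genes, red cell precursors, ran from 176 to 186 CPM at E8 and 2025 to 5457 CPM at E9.5. At E14 it reached 10519 to 34853 CPM. The 8 genes did not rise together from E9.5 to E14. Of them 3 were called higher and 4 lower, against 25.4% and 24.6% of all genes. Their median log2 fold change was -0.96, with a range of -4.70 to 8.18. Summed levels at E9.5 were 34.0 to 107 CPM for 5 epicardial genes and 329 to 369 CPM for 5 endothelial genes. At E14 they were 156 to 172 and 565 to 580 CPM. The sum of 5 macrophage genes was 185 to 191 CPM at E9.5 and 228 to 246 CPM at E14. Of these 5 genes 4 were called higher at E14 (25.4% of all genes) and 1 did not pass. Their median log2 fold change from E9.5 was 2.71, with a range of 0.19 to 4.66. E9.5 replicate 1, the library lowest for most of the 43 genes, was also the lowest of its stage for the erythroid (2025 against 4058 and 5457 CPM), fibroblast (224 against 276 and 391 CPM), epicardial (34.0 against 78.0 and 107 CPM) and visceral endoderm genes (10.2 against 75.4 and 132 CPM). The sum of 5 neural genes was 6.72 CPM in E9.5 replicate 1 against 12.5 and 13.3 CPM, and 7.92 to 9.87 CPM at E14. From E9.5 to E14, 1 of the 4 neural genes that passed the filter was called higher and 2 lower, against 25.4% and 24.6% of all genes. No marker of these lists was at 0. Their part in the changes of the 43 genes was not tested.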

How the data were processed

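Total RNA of the 12 libraries was analysed from raw counts: the deposited table gives, for each gene interval, whole-number counts that were not normalized. Per the submitters' processing notes STAR 2.5.0 and Cufflinks 2.2.1 were used, with the builds GRCm38, mm10 and hg38 named without a role. How reads were counted, with which strand setting and gene annotation, is not given in the sources used here. Of the 48709 intervals 42778 equal those of GENCODE M21 (GRCm38), including 39 of the 43 genes described. Coordinates are those of the deposited table.

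Counts were fitted in R 4.3.3 with edgeR 4.0.16 (filterByExpr, TMM factors of 0.913 to 1.07, robust quasi-likelihood fit of all 12 libraries, common dispersion 0.0362). The 5 pairs of stages compared were tested over all 28846 genes with Benjamini-Hochberg adjustment, and genes were called at an adjusted p under 0.05. Log2 CPM used no prior count, except in the span adjustment and the correlations between libraries, where it was 2. Each of the 43 genes had at least 536 counts in every library, so 3 libraries per stage limit the precision more than depth. The fit was tested on simulated data. Alternatives were RLE and upper-quartile factors, other filters, DESeq2 1.42.0, a replicate block, 2 stages alone, small structural RNAs and globins left out, a span adjustment and each library left out. Promoters were read from RefSeq GRCm38.p6. Tables and figures used Python 3.11, pandas 2.3.3, numpy 2.4.6 and matplotlib 3.10.9.

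The 43 genes and the wider lists (50 replication genes, 73 mitotic genes, 21 transcription factors, 7 inhibitors and markers of other cell types) were chosen with earlier results of these data known. The rule for named genes gave library values for 15 set genes and for those with the largest and smallest change per class and comparison, and, of each wider list, the 3 largest called rises and falls with at least 1 CPM in the higher stage. Called transcription factors and kinase inhibitors of the last interval could also be named.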

Additional observations from a re-analysis of the deposited data

How the results depend on the processing

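From E9.5 to E14 the count of genes that fell was 35 to 39 with a library left out, and 1 gene rose under the 10 CPM filter. The median of the mitotic genes was -0.66 to -0.56 with a library left out. From E8 to E14 those ranges were -0.67 to -0.56 for replication genes, -0.47 to -0.35 for mitotic genes, 0.20 to 0.27 for their difference, 31 to 36 for genes lower and 0 to 1 for genes higher. There the replication median was -0.51 under the 10 CPM filter and the class difference 0.19 with the span adjustment.

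The earlier intervals depended on the processing. From E8 to E8.5, in place of 0 higher and 0 lower, the 10 CPM filter gave 2 and 1 (10.96% and 6.09% of all genes), DESeq2 2 and 3 (8.25% and 6.84%), and leaving out small structural RNAs and globins 2 higher (2.66%). A library left out gave 0 to 2 higher, 0 to 19 lower and a class difference of -0.071 to -0.0020. From E8.5 to E9.5, 2 stages alone gave 8 higher (12.4%) and the span adjustment 1 lower and a class difference of 0.084. A library left out gave 6 to 30 higher. From E8 to E9.5 the genes higher were 3 with no filter (6.99%) and 9 with 2 stages alone (18.4%), and the genes lower were 1 with RLE factors, upper-quartile factors, 2 stages alone and DESeq2. A library left out gave 2 to 8 higher and 0 to 1 lower. The cause was not tested.

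With the replicate number as a block, 3 genes in place of 5 were higher at E9.5 than at E8. After subtraction of stage means, same-numbered libraries of different stages correlated at -0.084 to 0.13. Differently numbered ones correlated at -0.17 to 0.19. The labels name no batch or pairing, and with 3 libraries per stage these values cannot decide whether a number marks one. Over 4515 recomputed gene values 111 calls were lost, 115 were gained and 0 reversed.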
